A study of Arabidopsis thaliana with 6 samples.

Results

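Plant cells enlarge by loosening and re-joining the polymers of their walls. Xyloglucan chains tie cellulose microfibrils together, and xyloglucan endotransglucosylase/hydrolases (XTHs) cut these chains and join the cut end to another xyloglucan chain or to water. Pectin is laid down with methyl esters on its backbone, and pectin methylesterases (pectinesterases) remove them, which changes how stiff the pectin gel is and how open it is to degrading enzymes. Both enzyme families are large in *Arabidopsis thaliana*, and their members differ in the organs and conditions in which they are transcribed.

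The 4 genes described here are XTH15 (AT4G14130), XTH17 (AT1G65310), XTH19 (AT4G30290) and the pectinesterase gene AT2G45220, which RefSeq also lists as PME17. They were chosen by their place in the authors' deposited comparison of gapcp1gapcp2 with wild type, that is, they were selected on the intensity difference reported below. Each is described by 1 probe set named in the authors' deposited table, and these are 4 of its 274 probe sets and 4 of the 22746 on the array. Whether the array holds further probe sets of these genes could not be seen. The probe set of each carries the plain suffix of a single locus rather than that of a probe set shared between transcripts. Because the same contrast chose them, their differences between genotypes are given as descriptions without a test.

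The arrays measured RNA of whole seedlings aged 15 days, from the double mutant gapcp1gapcp2 (3 biological replicates) and from wild type, ecotype Col 0 (3 biological replicates). GAPCP1 and GAPCP2 encode the plastidial, glycolytic glyceraldehyde-3-phosphate dehydrogenases, and mutants without both are known for short roots. The labels do not give the alleles of the double mutant or the number of plants in a replicate. Seedlings of both genotypes grew together on upright plates of dilute medium in long days. The samples' description field names embryo stages that match no other label, and it was not used.

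The median intensity was between 110.7 and 117.1 on the 6 arrays, and 3 arrays per genotype limit the precision of every value. A probe set could be given a gene name only through the authors' deposited table. That table holds no probe set for GAPCP1 or GAPCP2, so the genotype labels were not checked against the targeted transcripts, and it holds none of the 6 leaf mesophyll markers listed for a check of the tissue. In whole seedlings, fewer cells of a type and less RNA per cell cannot be told apart.

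Of the 4 genes, 3 were dimmer in gapcp1gapcp2 and 1 was brighter. PME17, XTH15 and XTH17 had 19.3%, 29.3% and 37.8% of their wild-type mean intensity in the mutant. XTH19 had 219.5% of its wild-type mean. The family of xyloglucan-modifying enzymes was therefore represented in both directions, with XTH15 and XTH17 on one side and XTH19 on the other.

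XTH15, known earlier as XTR7, encodes an enzyme with xyloglucan-joining activity, and its transcript is known to accumulate in elongating petioles of shaded plants. Its intensity was 92.4, 92.7 and 85.6 in gapcp1gapcp2 replicates 1 to 3, against 337, 302 and 286 in wild type replicates 1 to 3. The brightest mutant array lay 193 units below the dimmest wild-type array. The means were 90.3 ± 4.01 in gapcp1gapcp2 and 308 ± 26.1 in wild type (SD, n = 3 each). On the log2(intensity + 16) scale, on which all log2 changes here are given as gapcp1gapcp2 minus wild type, the change was -1.61 ± 0.08 (SE).

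XTH17 belongs to a subgroup of the family, together with XTH18, XTH19 and XTH20, that is known from root expression studies. It had intensities of 87.9, 81.1 and 93.0 in gapcp1gapcp2 and 244, 238 and 211 in wild type. All mutant arrays were again below all wild-type arrays, with a gap of 117.6. The mean was 87.3 ± 5.98 in gapcp1gapcp2, against 231 ± 17.7 in wild type (SD, n = 3 each), a log2 change of -1.26 ± 0.08 (SE).

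XTH19, from the same subgroup as XTH17, went the other way. It had intensities of 353, 431 and 391 in gapcp1gapcp2 and 173, 152 and 210 in wild type. The dimmest mutant array, replicate 1, lay 143 units above the brightest wild-type array, replicate 3. The mean was 392 ± 38.7 in gapcp1gapcp2 and 179 ± 29.6 in wild type (SD, n = 3 each), a log2 change of 1.07 ± 0.13 (SE). Its arrays spread more than those of the other genes, with a span from lowest to highest array of 0.27 in gapcp1gapcp2 and 0.43 in wild type on the log2 scale. For the other 3 genes the span was 0.10 to 0.17 in gapcp1gapcp2 and 0.20 to 0.27 in wild type.

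PME17 encodes a pectin methylesterase that is made with an inhibitor-like pro-region, which the subtilase SBT3.5 is known to cleave off in roots. Its intensity was 47.7, 48.5 and 42.6 in gapcp1gapcp2 replicates 1 to 3 and 266, 235 and 217 in wild type replicates 1 to 3. The groups were separated by 169 units. The means were 46.3 ± 3.20 in gapcp1gapcp2 and 240 ± 24.7 in wild type (SD, n = 3 each). The log2 change was -2.03 ± 0.09 (SE), the lowest of the 4. No probe set of SBT3.5 could be named, so the transcript of the processing enzyme is not described.

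**Figure D1:**
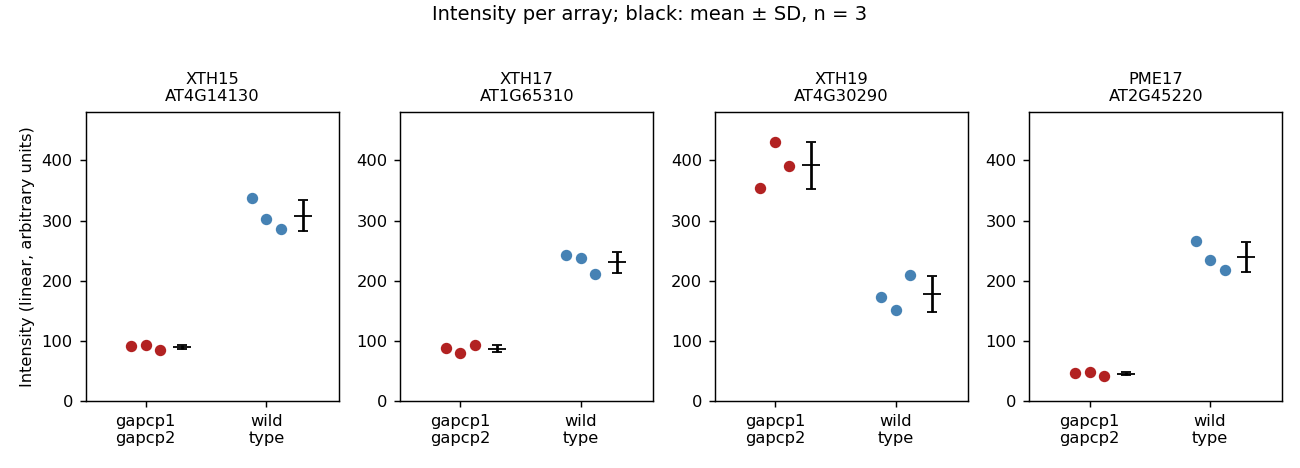
Intensity (linear, arbitrary units) of the 4 genes on each array, with gapcp1gapcp2 in red and wild type in blue. Points are biological replicates 1 to 3 from left to right, and black marks are the mean ± SD (n = 3). XTH15, XTH17 and PME17 lie lower on every mutant array, and XTH19 lies higher, with 353 to 431 in gapcp1gapcp2 and 152 to 210 in wild type.

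The changes of the 4 genes differed in size as well as in direction. Taking the log2 difference of a pair of genes within each array first, and then gapcp1gapcp2 minus wild type, XTH17 minus XTH19 was -2.33 ± 0.21 and XTH15 minus XTH19 was -2.68 ± 0.19 (SE, n = 3 each). The 2 XTH genes that were dimmer in the mutant lay closer together, with -0.35 ± 0.08 for XTH15 minus XTH17. PME17 had the larger decrease beside either, with 0.43 ± 0.02 for XTH15 minus PME17 and 0.78 ± 0.10 for XTH17 minus PME17. These are differences of changes within arrays and say nothing of which transcript is more abundant. Their SE does not cover the choice of the pseudocount, the constant added before the log, which weighs most on dim probe sets. At a pseudocount of 1 the log2 changes were -1.76 for XTH15, -1.39 for XTH17 and -2.35 for PME17. At 64 they were -1.27, -0.96 and -1.46. PME17 thus had the larger decrease at both, but its distance from XTH15 and XTH17 was smaller at 64.

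In the authors' deposited table the fold change, written negative where gapcp1gapcp2 is lower, was -4.91 for PME17, -3.38 for XTH15, -2.63 for XTH17 and 2.21 for XTH19. The limits of the authors' filter were a fold of 2, a difference of 100 and a p of 0.05. XTH19 was the nearest of the 4 to the limit on fold, and 45 of the 256 table probe sets of 1 locus had a smaller absolute fold in the authors' deposited table. XTH17 was the nearest to the limit on difference, with -141 in the authors' deposited table. What lay just outside these limits could not be named. The table's group means differ slightly from those of the 6 arrays, with 226.6 for PME17 in wild type in the authors' deposited table, and its header numbers arrays up to 12, so which arrays it rests on is not known.

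Across all 22746 probe sets, a limma test with Benjamini-Hochberg adjustment called 2501 at an adjusted p under 0.05, which is 11.0%. It called 5.86% higher and 5.13% lower in gapcp1gapcp2. All 4 genes were among the called probe sets, and nothing is read from this because the rule used the same contrast. The arrays of both genotypes did not overlap for any of the 4, as was the case for 32.1% of all probe sets. The count over all probe sets was lower without any 1 array, which also leaves fewer arrays in the fit. It was 2347, 1190 and 1197 without gapcp1gapcp2 replicates 1, 2 and 3 in turn. Without wild type replicates 1, 2 and 3 in turn it was 1738, 1422 and 1864.

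Set among all probe sets, PME17 lay far out on the lower side, with 11 probe sets having a lower log2 change. For XTH15 there were 37 such probe sets and for XTH17 there were 94. On the upper side, 200 probe sets had a higher log2 change than XTH19. The median log2 change was -1.43 over the 4 genes and -0.02 over all probe sets. It was 1.075 over the 256 table probe sets of 1 locus, of which 157 were higher and 99 lower. The choice by this contrast fixes that each of the 4 lies away from 0, and their direction was not tested.

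**Figure D2:**
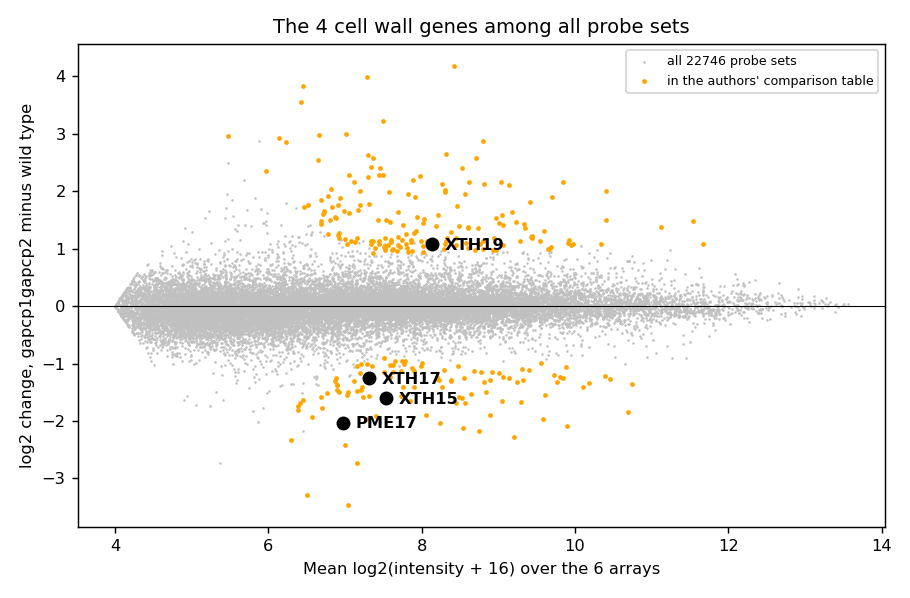
The log2 change (gapcp1gapcp2 minus wild type, vertical axis) against the mean log2(intensity + 16) over the 6 arrays (horizontal axis) for each of 22746 probe sets. Grey points are all probe sets, orange points those in the authors' deposited table, and black points the 4 genes. PME17, XTH15 and XTH17 lie at -2.03, -1.61 and -1.26, and XTH19 at 1.07.

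In the RefSeq gene table for TAIR10.1, XTH15 and XTH19 are on chromosome 4, XTH17 is on chromosome 1 and PME17 is on chromosome 2. XTH19 lies directly beside XTH18, and XTH24 follows on the far side of XTH18, so that 3 genes of the family form a row. No probe set of the authors' deposited table lists XTH18 or XTH24 as its locus, although a shared probe set lists only 1 of its loci there. Of the 10 protein-coding genes that flank each of the 4 genes, 5 on either side, 0 were listed. The table holds 1.20% of all probe sets, so a count of 0 is no result about these neighbourhoods.

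Among the 33 XTH genes of the genome, only XTH15, XTH17 and XTH19 could be named, with 2 lower and 1 higher in the mutant. The other 30 have no named probe set, and their values are unknown here. The list of pectin modification covers methylesterases, their inhibitors, polygalacturonases, a lyase-like gene and subtilases. Of its 22 genes that matched a RefSeq name, PME17 was the only one among the table probe sets of 1 locus. No member of the lists of expansins (25 genes), xyloglucan synthesis and trimming (9 genes) or cellulose synthesis (11 genes) was named there. Table probe sets of 1 locus are 1.13% of all probe sets, so nothing is read from these counts. Being outside the table does not show that a gene kept its level, because the table holds only what passed the authors' filter.

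The list of extensins and arabinogalactan proteins had 4 of 16 members (25.0%) among the table probe sets of 1 locus, which are 1.13% of all probe sets. All 4 were lower in gapcp1gapcp2, whereas 99 of the 256 table probe sets of 1 locus were lower and 157 were higher. The authors' filter on the same contrast chose these 4, the values of the other 12 are unknown, and no test was made. The list was chosen with earlier results of these data known, so nothing is read from these counts. Arabinogalactan proteins are heavily glycosylated proteins of the wall and the outer membrane face. AGP30, described from the walls of primary roots, had intensities of 13.9, 20.1 and 24.0 in gapcp1gapcp2 and 123, 187 and 175 in wild type, and its log2 change was -2.32 ± 0.18 (SE), which moved to -3.01 at a pseudocount of 1 and -1.43 at 64 because its mutant intensity is low. AGP13, a short arabinogalactan peptide, had 54.3, 71.3 and 62.6 in gapcp1gapcp2 and 288, 291 and 292 in wild type (log2 change -1.97 ± 0.09 SE).

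AGP22 and AGP14, which encode arabinogalactan peptides as well, gave the same picture. AGP22 averaged 229 ± 2.63 in gapcp1gapcp2 and 898 ± 39.9 in wild type (SD, n = 3 each). AGP14, whose mutants are known for altered root hair length, averaged 284 ± 40.5 in gapcp1gapcp2 and 919 ± 71.1 in wild type (SD, n = 3 each). The mutant arrays lay below the wild-type arrays without overlap for these 4 genes, as the filter that chose them favours, and 32.1% of all probe sets did not overlap in one direction or the other.

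A further 4 table genes carry a wall term in the authors' description. AT5G62340, annotated to the invertase and pectin methylesterase inhibitor family, was lower, with 79.9, 80.3 and 60.6 in gapcp1gapcp2 and 246, 212 and 228 in wild type (log2 change -1.46 ± 0.11 SE). The family name covers inhibitors of either enzyme, so which of them AT5G62340 acts on is not known here. The other 3 were brighter in the mutant.

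AT5G14650, annotated as a polygalacturonase, a class of enzymes that cut the pectin backbone, averaged 227 ± 9.55 in gapcp1gapcp2 and 95.3 ± 9.09 in wild type (SD, n = 3 each). CSLG3, a cellulose synthase-like gene, averaged 430 ± 25.3 in gapcp1gapcp2 and 99.2 ± 16.1 in wild type. PNP-A, which the authors' deposited table describes as an expansin relative and which encodes a secreted natriuretic peptide, averaged 329 ± 23.1 in gapcp1gapcp2 and 57.7 ± 18.3 in wild type. With XTH15, XTH17, XTH19 and PME17 included, 12 genes on the wall lists or described by a wall term could be named, 8 lower and 4 higher in gapcp1gapcp2. AT5G62340, which was lower, and AT5G14650, CSLG3 and PNP-A, which were higher, are counted by their description alone. The authors' filter chose all of these genes, and no test of their directions was made.

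**Figure D3:**
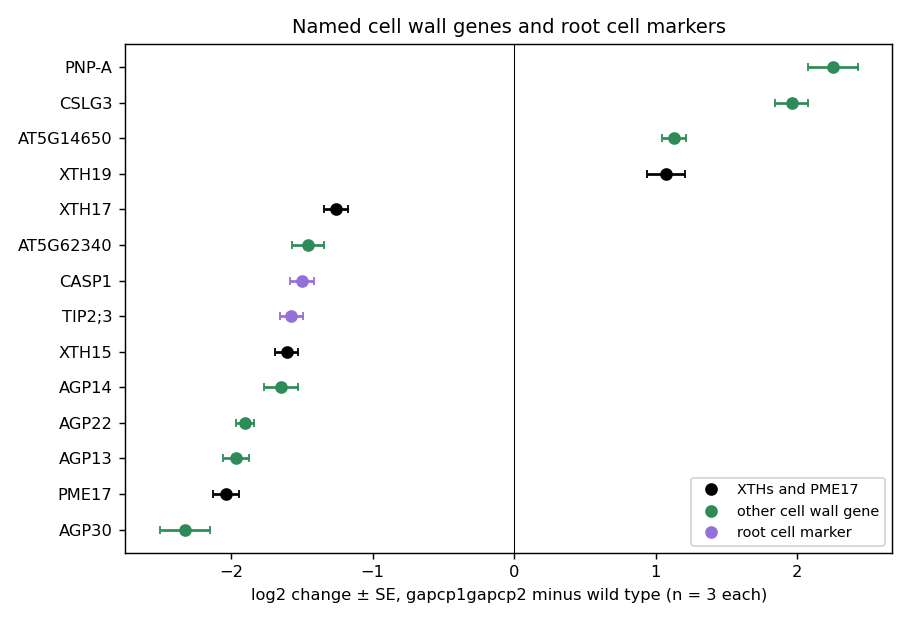
The log2 change (gapcp1gapcp2 minus wild type) of the 12 named wall genes and 2 root cell markers, with the standard error as bars (n = 3 each). Black points are the XTHs and PME17, green points other wall genes and purple points root markers. The values run from 2.25 for PNP-A at the top to -2.32 for AGP30 at the bottom, and XTH17 and XTH19 lie on opposite sides of 0.

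Of 18 listed root cell markers, 2 could be named, and both were dimmer on the same mutant arrays. The other 16 have no value here, and these 2 are known only because they passed the authors' filter, as 1.13% of all probe sets did with 1 locus. CASP1, a scaffold protein of the Casparian strip in the endodermis, had 263, 273 and 233 in gapcp1gapcp2 and 714, 769 and 777 in wild type (log2 change -1.50 ± 0.08 SE). TIP2;3, a tonoplast channel of roots, had 98.0, 118 and 105 in gapcp1gapcp2 and 359, 354 and 335 in wild type (log2 change -1.57 ± 0.08 SE). Their summed intensity was 337.8 to 391.6 in gapcp1gapcp2 and 1073 to 1123 in wild type, and 0 of the 2 were at 0 in either genotype. Their part in the lower values of XTH15, XTH17, PME17 and the arabinogalactan genes was not tested.

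For each gene, the 3 table probe sets of 1 locus with the highest Pearson r of log2 values over the 6 arrays were taken. All arrays are shared and the table was filtered on the genotype difference, so nearly every table gene that moved the same way has an r above 0.9, and r is a description only. XTH15 and PME17 were each other's nearest gene, with r = 0.99997. The next for both were ESB1, a dirigent protein gene of the Casparian strip, and SAUR55, a small auxin up RNA gene, with r between 0.99875 and 0.99903. ESB1 averaged 176 ± 1.21 in gapcp1gapcp2 and 454 ± 25.0 in wild type.

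XTH17 was most like AT2G44380, which encodes a DC1 domain protein, KTI1, a Kunitz protease inhibitor gene, and the AP2 transcription factor gene TINY, with r between 0.99801 and 0.99852. KTI1 averaged 660 ± 36.5 in gapcp1gapcp2 and 1790 ± 172.3 in wild type. XTH19 was most like the cytochrome P450 gene CYP71B5, AT4G29700, which encodes a nucleotide pyrophosphatase family protein, and RD20, a caleosin gene known to respond to drought and abscisic acid. Their r lay between 0.99253 and 0.99709. RD20 averaged 191 ± 21.7 in gapcp1gapcp2 and 79.8 ± 8.62 in wild type.

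The authors' filter on p favours genes that vary little among arrays of one genotype, but it did not choose which replicate is high or low. In wild type, XTH15, XTH17 and PME17 all had their highest intensity in replicate 1 and their lowest in replicate 3, an order found in 21.3% of all probe sets. XTH19 had its highest wild-type value in replicate 3 and its lowest in replicate 2, an order found in 10.4%. In gapcp1gapcp2, XTH15 and PME17 were highest in replicate 2 and lowest in replicate 3, an order found in 11.2% of all probe sets. XTH17 was highest in replicate 3 and lowest in replicate 2 (9.83%). XTH19 was highest in replicate 2, like XTH15 and PME17, but lowest in replicate 1 (24.6%).

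**Figure D4:**
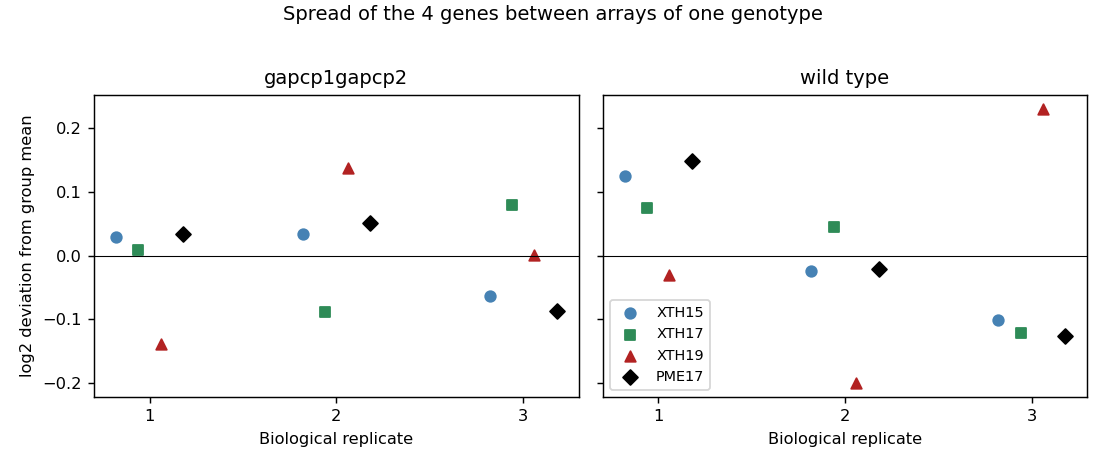
The log2 deviation of each array from the mean of its genotype (vertical axis) for replicates 1 to 3 (horizontal axis), with gapcp1gapcp2 in the left panel and wild type in the right. Circles are XTH15, squares XTH17, triangles XTH19 and diamonds PME17. XTH15 and PME17 lie close together on every array, and XTH19 spreads from -0.20 to 0.23 in wild type.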

How the data were processed

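RNA of 6 seedling samples was hybridised to one-colour Affymetrix arrays after biotin labelling, per the labels' protocols. The authors deposited a linear intensity per probe set and array. The submitters' processing notes name GCOS. Neither its version nor its scaling is given in the sources used here. The authors also deposited a comparison table with group mean intensity, a signed fold change score, its bounds and a p-value. Per the file headers it was filtered on fold, difference and p. Its t statistics had lost their decimal mark and were not used.

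Groups came from the sample titles. Intensities below 0 (1.85% of values) were raised to 0, and log2(intensity + 16) served for all fits without further normalisation. All 22746 probe sets were fitted in limma 3.58.1 (R 4.3.3, lmFit and eBayes, two-sided, Benjamini-Hochberg, adjusted p under 0.05) on genotype alone. Only the limma fit was tested on simulated data, with known changes placed in probe sets at or above the median wild-type intensity. Table probe sets with a shared suffix (18 of 274) were not named. RefSeq names (TAIR10.1) matched 140 of 143 list entries.

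Genes named are the 4 genes, list members in the table, table genes described by a wall term, and the 3 most alike per gene. The genes and lists were chosen with earlier results of these data known. Alternatives were quantile normalisation, median centring, pseudocounts of 1 and 64, leaving out the dimmest 40%, trend and robust moderation, a 2-fold minimum, a replicate block, limma's array weights and fits without 1 array. Protein and promoter sequences, and the promoter motifs that the design listed, were not used here.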

Additional observations from a re-analysis of the deposited data

How the results depend on the processing

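No log2 change of the 4 genes (0 of 56 alternative values) or of the 18 other named genes (0 of 251) reversed. The pseudocount, which weighs most on dim probe sets, moved 3 of the 4 by more than 1 SD between replicates. At a pseudocount of 1 the changes were -1.76 for XTH15, -1.39 for XTH17 and -2.35 for PME17, and at 64 they were -1.27, -0.96 and -1.46. Without 1 array in turn, the changes were -1.66 to -1.54 for XTH15, -1.32 to -1.21 for XTH17, 0.97 to 1.19 for XTH19 and -2.10 to -1.96 for PME17.

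The count of called probe sets moved more. Array weights gave 3779 calls, 2042 of them higher, against 2501 and 1334, and the cause was not tested. Asking for 2-fold as well, which can only lower the count, kept 390 (222 higher and 168 lower). Leaving out 1 array gave 1190 to 2347 calls (620 to 1362 higher, 560 to 985 lower), with fewer arrays in the fit. The replicate block gave 1687 calls (910 higher, 777 lower) and the same log2 changes for the 4 genes. The correlation of deviations between mutant and wild-type arrays of one number was 0.234 (replicate 1), 0.0186 (replicate 2) and 0.0174 (replicate 3). Replicates 2 and 3 correlated better with another number, and the pairing was not used. Signal over background could not be judged, since no detection calls were used. AGP30 was the 1 named gene whose fold moved by over 1.5 times with the pseudocount, by 1.86 times at 64. PME17 and PNP-A came close to that limit, with 1.49 and 1.47 times at 64.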

Other observations

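XTH15 and PME17 kept nearly the same log2 distance on every array of a genotype. This comparison was chosen after the values were seen. XTH15 minus PME17 on the log2(intensity + 16) scale was 0.77, 0.75 and 0.79 in gapcp1gapcp2 replicates 1 to 3 and 0.32, 0.34 and 0.37 in wild type replicates 1 to 3. Within a genotype it thus varied by 0.04 in gapcp1gapcp2 and 0.05 in wild type, although XTH15 alone varied by 0.10 and 0.23. The added 16 narrows the spread of dim probe sets, among them PME17 in the mutant. Neither this distance nor the correlation of deviations was computed with another pseudocount.

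The deviations of both genes from their genotype means correlated at r = 0.997 over the 6 arrays, and 2 of 22683 other probe sets had a higher r with XTH15. With 6 arrays and 2 group means taken out, such an r is a description without a test. XTH17, of the same direction, had r = 0.372 with XTH15 and 0.339 with PME17. XTH19 had r = -0.758 with XTH17, -0.332 with XTH15 and -0.335 with PME17. Of the 4 genes, the 2 whose deviations were most alike thus belong to different enzyme families, one acting on xyloglucan and one on pectin.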
